A study of Sus scrofa with 30 samples.

Results

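The 64 genes described here had a higher mRNA level in porcine neonatal islet cell clusters (NICCs) matured with fetuin-A than in control medium. This held against clusters kept in control medium both before and after maturation. With the TGFβ receptor inhibitor SB431542, their means moved by less than 1.5-fold once 0.5 was added to each. The genes were chosen out of 25880 Ensembl gene identifiers by 4 measured conditions. Levels are in CPM, the counts of a gene per 1000000 counts of its library, and R is the log2 ratio of 2 group means of CPM with 0.5 added to each. The highest of the 6 group means was at least 1 CPM. R of fetuin-A over control medium was at least 1 at the end of maturation and at least 1 against the start of maturation. All 4 fetuin-A libraries lay above all 4 control libraries of each time point. The condition on SB431542 was set on the same scale, in either direction. The 64 genes were 0.462% of the 13860 genes that reached 1 CPM, and 55 of them had a symbol.

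The study compared 6 groups of NICCs, with 4 RNA-seq libraries each. NICCs are small aggregates of pancreatic cells prepared from neonatal piglets, those sequenced here aged 4 days (n = 2) and 12 days (n = 2), and they hold endocrine cells together with duct, exocrine, mesenchymal and other cells. HSA/d1 was harvested on culture day 6 (maturation day 1) in medium with human serum albumin (HSA) at 0.6 mg/ml. The other 5 groups were harvested on culture day 10 (maturation day 5) and held HSA alone (HSA/d5), HSA with SB431542 at 10 μmol/l (HSA + SB/d5), HSA with an addition labelled LDN (HSA + LDN/d5), HSA with both (HSA + SB + LDN/d5), or human fetuin-A at 0.6 mg/ml in place of HSA (Fet-A/d5). The labels give no identity or dose for LDN, and assign no library to any of the 4 independent islet preparations or to an age. The libraries were therefore treated as unpaired, and where groups are said to overlap, the libraries that cross may come from different preparations.

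Fetuin-A, encoded by AHSG, is a glycoprotein that the liver secretes into plasma; it belongs to the cystatin superfamily. It binds calcium phosphate and fatty acids, is known as an inhibitor of the insulin receptor, as an adaptor for lipid activation of Toll-like receptor 4 (TLR4), and as a soluble antagonist of TGFβ. TLR4 signals to NF-κB, which switches on chemokines and its own inhibitors, whereas TGFβ receptors phosphorylate SMAD2 and SMAD3, the step blocked by SB431542. The pig transcript AHSG did not exceed a group mean of 0.0589 CPM.

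Total counts were 18883734 to 24346119 per library. The tissue label was borne out by islet, exocrine and mesenchymal transcripts in all groups; insulin mRNA (INS) had means of 747 CPM in HSA/d1, 2596 CPM in HSA/d5 and 748 CPM in Fet-A/d5. One HSA/d5 library had a higher sum of the 64 genes than the others. HSA/d5 replicate 3 was the highest HSA/d5 library for 41 of the 64 genes, a count not made over all genes. The 64 genes summed there to 3775 CPM against 2349, 2657 and 2969 CPM in the other HSA/d5 libraries. The same library carried 512 CPM of CXCL8 (the neutrophil chemokine interleukin-8) against 55.3 to 132 CPM, and 20.2 CPM of IL1A (interleukin-1α) against 1.15 to 3.78 CPM. Without it, the same conditions were met by 114 genes, of which 56 were among the 64. The 8 lost were SOD2, TRPM6, CBS, ANGPT2, TMPRSS11F, KCNF1, MYC and SUN2. All but SUN2 then exceeded the limit on SB431542, with higher means in HSA + SB/d5.

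In sum over the 64 genes, fetuin-A libraries held 6459, 6523, 6983 and 8630 CPM. HSA/d1 libraries held 2136 to 2662 CPM, and the 3 groups with SB431542 or LDN held 2395 to 2998 CPM. Fet-A/d5 replicate 2 was the top fetuin-A library for 39 of the 64 genes, again not counted over all genes, and also had the highest sum. Since the rule chose the genes for these gaps, they are given as a description with no test. In bulk RNA a change in the number of cells of one type cannot be told from a change of mRNA per cell.

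**Figure D1:**
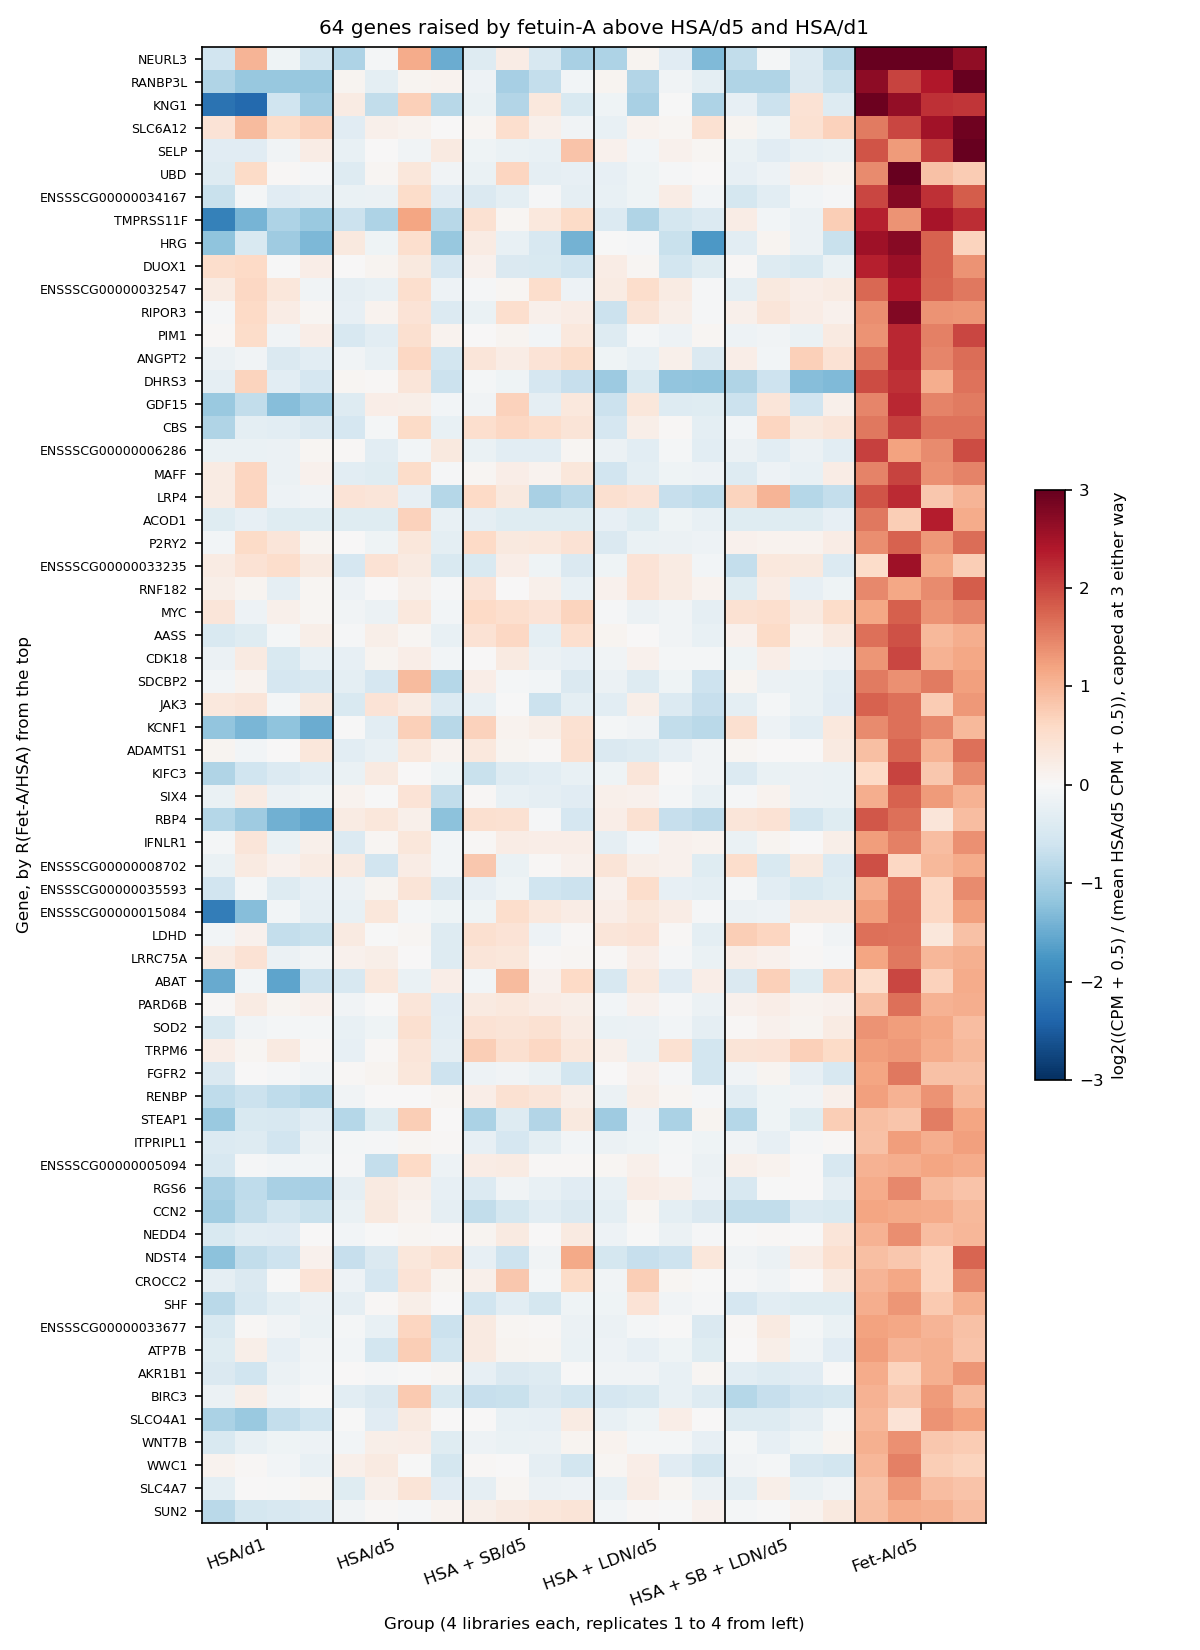
Heat map of the 64 genes (rows, ordered by R of Fet-A/d5 over HSA/d5) in the 24 libraries (columns, grouped by condition). Colour gives the log2 ratio of each library's CPM + 0.5 to the HSA/d5 mean + 0.5, capped at 3; the Fet-A/d5 columns are red throughout, and HSA/d5 replicate 3 is the reddest of the control columns, with a sum of 3775 CPM.

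R of Fet-A/d5 over HSA/d5 ranged from 1.00 to 3.31 with a median of 1.33, and R over HSA/d1 from 1.03 to 3.87 with a median of 1.58. Over all genes at 1 CPM these medians were -0.05 and 0.02. The lowest fetuin-A library exceeded the highest of the 8 HSA libraries by a factor of 1.01 to 5.61 (median 1.49), and by 2 or more for 11 genes. At the lower edge, SUN2 (R 1.004), SLC4A7 (1.008) and WWC1 (1.017) were just inside the threshold, whereas CREB3L1 (0.999), MRPS6 (0.995) and PPARGC1A (0.992) were just outside and met every other condition. The threshold of 1 on this ratio alone kept out 94 genes, the limit on SB431542 alone kept out 16 (5 higher and 11 lower with the inhibitor), and the ratio to HSA/d1 alone kept out 15. Because 0.5 is added to each mean, R understates the change of genes near 1 CPM.

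**Figure D2:**
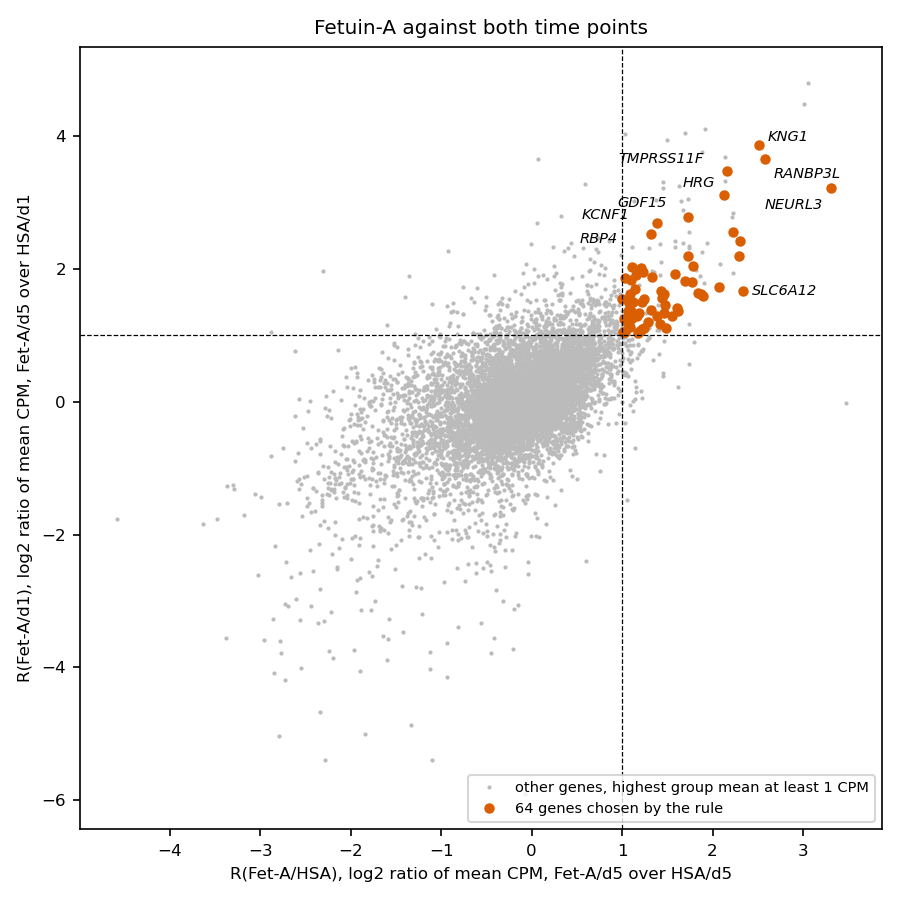
Each point is a gene; the x axis is R of Fet-A/d5 over HSA/d5 and the y axis R of Fet-A/d5 over HSA/d1, both log2 ratios of mean CPM. The 64 genes (orange) lie right of and above the dashed lines at 1 by construction, and of them NEURL3 is farthest right at 3.31 and KNG1 highest at 3.87; grey points beyond both lines failed the condition on single libraries or on SB431542.

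The genes were grouped by known role for description. The rule required all fetuin-A libraries to lie above all HSA libraries, so a lack of overlap with HSA below restates that choice. The groups, and those genes outside the naming rule, were named after their values were seen. CPM is not corrected for transcript length, so levels are compared between groups of libraries and not between genes.

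Secreted proteins were encoded by 8 of the 64 genes, with R over HSA/d5 from 1.02 to 2.51. KNG1 encodes kininogen, a plasma protein of the cystatin superfamily from which bradykinin is cut. KNG1 was at 329, 263, 195 and 187 CPM in Fet-A/d5, at 50.3, 25, 70 and 23.5 CPM in HSA/d5, and at 8.71, 7.97, 27.7 and 20.5 CPM in HSA/d1. The fetuin-A libraries overlapped neither HSA group, and their mean was 5.76-fold that of HSA/d5. HRG, histidine-rich glycoprotein, another plasma protein of that superfamily, was at 11.3, 12.9, 6.36 and 2.68 CPM in Fet-A/d5 against 0.419 to 2.33 CPM in HSA/d5; its lowest fetuin-A library stood only 1.15-fold above the highest HSA library.

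GDF15, a stress-induced cytokine of the TGFβ superfamily, was at 63.2, 109, 64 and 67.2 CPM in Fet-A/d5, at 17.1 to 25.9 CPM in HSA/d5 and at 8.95 to 13.2 CPM in HSA/d1. The 3 groups did not overlap, in the order HSA/d1, HSA/d5, Fet-A/d5. CCN2, a matricellular protein also known as connective tissue growth factor, was at 754, 724, 716 and 645 CPM in Fet-A/d5 against 273 to 404 CPM in HSA/d5 and 160 to 226 CPM in HSA/d1. The 4 fetuin-A libraries were close together for CCN2. ANGPT2, the angiopoietin ligand of the endothelial receptor TEK, was at 108, 170, 96.6 and 112 CPM against 23.6 to 53.8 CPM in HSA/d5. The remaining secreted proteins were RBP4 (retinol-binding protein 4, R 1.32), the metalloproteinase ADAMTS1 (R 1.38) and the Wnt ligand WNT7B (R 1.02).

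Receptors, adhesion molecules, channels and a membrane protease made up another 8, with R from 1.16 to 2.30. FGFR2, a receptor tyrosine kinase for fibroblast growth factors, was at 888, 1171, 729 and 726 CPM in Fet-A/d5, at 401, 419, 497 and 255 CPM in HSA/d5 and at 289 to 398 CPM in HSA/d1. Neither HSA group reached the fetuin-A libraries. LRP4, an LDL receptor-related protein that binds agrin, was at 171, 217, 80.7 and 92.4 CPM in Fet-A/d5 and at 24.9 to 60.5 CPM in HSA/d5. HSA/d1 reached 71.7 CPM. In every culture day 10 group LRP4 fell into a higher and a lower pair of libraries, so the split was not particular to fetuin-A. HSA + SB + LDN/d5, for example, was at 72.5, 93.2, 25 and 27.7 CPM. The lower fetuin-A pair overlapped only the highest library of that group.

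SELP, P-selectin, an adhesion molecule of platelets and endothelium, was at 1.84, 1.03, 2.20 and 5.47 CPM with fetuin-A and at no more than 0.262 CPM in HSA libraries of either time point. TMPRSS11F, a transmembrane serine protease, was at 35.4, 17.7, 39.0 and 32.7 CPM in Fet-A/d5; HSA/d5 replicate 3 carried 15.7 CPM and the other three HSA/d5 libraries 3.21 to 4.05 CPM. The lead over HSA/d5 was thus narrow in 1 library and wide in the rest. The purinergic receptor P2RY2 (R 1.55), the interferon-λ receptor subunit IFNLR1 (1.29), the magnesium channel TRPM6 (1.17) and the potassium channel subunit KCNF1 (1.38) completed the set.

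The next 12 genes encode kinases, signalling regulators and transcription factors, with R from 1.02 to 2.58. RANBP3L, a nuclear export factor that acts on SMAD proteins, was at 7.23, 4.41, 5.86 and 9.21 CPM in Fet-A/d5 and at 0.774, 0.478, 0.763 and 0.786 CPM in HSA/d5. In HSA/d1 it was nearly absent (0.0435 to 0.138 CPM, a few reads per library). The lowest fetuin-A library was 5.61-fold above the highest HSA library, the widest such gap among the 64. MYC, a transcription factor of cell growth whose gene is repressed by SMAD3 complexes, was at 82.9, 129, 95.9 and 104 CPM in Fet-A/d5, at 32.6 to 46.5 CPM in HSA/d5 and at 33.4 to 47.8 CPM in HSA/d1. The HSA groups overlapped each other, and the fetuin-A libraries overlapped neither.

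PIM1, a serine/threonine kinase induced by cytokine receptors through STAT proteins, was at 35.1, 67.2, 40 and 56.5 CPM in Fet-A/d5 against 9.61 to 19.1 CPM in HSA/d5. JAK3, the cytokine receptor kinase that acts upstream of STATs, was at 35.0, 32.1, 17.1 and 25 CPM against 7.10 to 13.3 CPM. Both kinases were also above HSA/d1 in every fetuin-A library, as the rule required. CDK18, a cyclin-dependent kinase outside the core cell cycle, was at 141, 225, 115 and 125 CPM in Fet-A/d5 and at 47.1 to 64.3 CPM in HSA/d5. The others were the small MAF factor MAFF (R 1.62), the homeobox factor SIX4 (1.32), the G protein regulator RGS6 (1.11), WWC1 (KIBRA, an upstream regulator of the Hippo pathway, 1.02), the PDZ protein SDCBP2 (1.43), SHF (1.08) and LRRC75A (30.8 to 46.8 CPM against 11.6 to 17.4 CPM).

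Enzymes of ubiquitin transfer, oxidant handling and the inflammatory response numbered 8. NEURL3, an E3 ubiquitin ligase, had the highest R of all 64. It was at 88.8, 183, 96.3 and 69.5 CPM in Fet-A/d5, at 5.28, 10.1, 23.3 and 3.40 CPM in HSA/d5 and at 6.93 to 21.9 CPM in HSA/d1. The mean was 10.4-fold that of HSA/d5, and no group other than fetuin-A exceeded 23.3 CPM in any library. BIRC3, a ubiquitin ligase (cIAP2) that NF-κB induces and that acts in TNF signalling, was at 704, 600, 833 and 662 CPM with fetuin-A; HSA/d5 replicate 3 reached 588 CPM, whereas the other HSA/d5 libraries held 250 to 276 CPM. BIRC3 met the rule by a factor of only 1.02 and was lost in 6 of the settings that left out 1 library.

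SOD2, the mitochondrial superoxide dismutase and an NF-κB target, was at 312, 294, 276 and 236 CPM in Fet-A/d5 and at 98.3 to 173 CPM in HSA/d5. DUOX1, an NADPH oxidase that makes hydrogen peroxide, was at 22.1, 26.2, 14.9 and 10.9 CPM against 2.67 to 5.07 CPM. Both were placed here by known role, and the oxidative and metal stress list described below held none of the 64 genes. UBD, a ubiquitin-like modifier induced by inflammatory cytokines, rested on 1 library, with 9.00 CPM in Fet-A/d5 replicate 2 and 0.709 to 1.40 CPM in the other three. ACOD1, which makes itaconate in activated macrophages, was at 0.585 to 2.80 CPM with fetuin-A and at no more than 0.539 CPM in any HSA library. The ubiquitin ligases NEDD4 (R 1.10) and RNF182 (1.48) completed this group.

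Metabolic enzymes and transporters were the most numerous group, with 13 genes and R from 1.01 to 2.34. CBS, cystathionine β-synthase of the transsulphuration pathway, was at 72.0, 99.0, 73.6 and 74.0 CPM in Fet-A/d5, at 16.5 to 35.3 CPM in HSA/d5 and at 12.3 to 19.2 CPM in HSA/d1. ABAT, which degrades the transmitter GABA, was at 103, 287, 116 and 155 CPM in Fet-A/d5 against 51.3 to 89.6 CPM in HSA/d5, and the carrier SLC6A12 for betaine and GABA was at 1.71, 2.52, 3.80 and 5.16 CPM against 0.091 to 0.335 CPM. For SLC6A12, HSA/d1 (0.504 to 0.958 CPM) lay above HSA/d5 in every library. AKR1B1, aldose reductase of the polyol pathway, was at 144, 105, 139 and 168 CPM against 64.6 to 68.9 CPM.

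DHRS3, which reduces retinaldehyde to retinol, was at 17.7, 20.8, 9.41 and 13.9 CPM in Fet-A/d5 and at 2.51 to 5.52 CPM in HSA/d5. With the retinol carrier RBP4, 2 proteins of retinoid handling were among the 64. SLC4A7, a sodium bicarbonate cotransporter, was at 254, 340, 262 and 247 CPM against 107 to 180 CPM. The group also held AASS of lysine degradation (R 1.46), the lactate dehydrogenase LDHD (12.2 to 31.2 CPM against 7.17 to 11.7 CPM), the hexosamine epimerase RENBP (1.15), the heparan sulphate enzyme NDST4 (1.09), the organic anion carrier SLCO4A1 (1.03), the copper ATPase ATP7B (1.06) and STEAP1 (1.14).

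A group named for cell polarity, cytoskeleton and the nuclear envelope held 6 genes. KIFC3, a kinesin of microtubule minus ends and cell junctions, was at 234, 633, 271 and 415 CPM in Fet-A/d5 against 133 to 187 CPM in HSA/d5, with replicate 2 far above the others. PARD6B, a member of the apical PAR polarity complex, was at 121, 207, 134 and 139 CPM against 51.0 to 84.2 CPM. SUN2, an inner nuclear membrane protein that links the nucleus to the cytoskeleton, was at 247, 286, 277 and 252 CPM against 122 to 141 CPM, with little spread in either group. RIPOR3 (R 1.87), CROCC2 (1.09) and ITPRIPL1 (1.12) were the others, and ITPRIPL1 was placed here with no established role in these structures. The 9 identifiers without a symbol had R from 1.08 to 2.23.

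**Figure D3:**
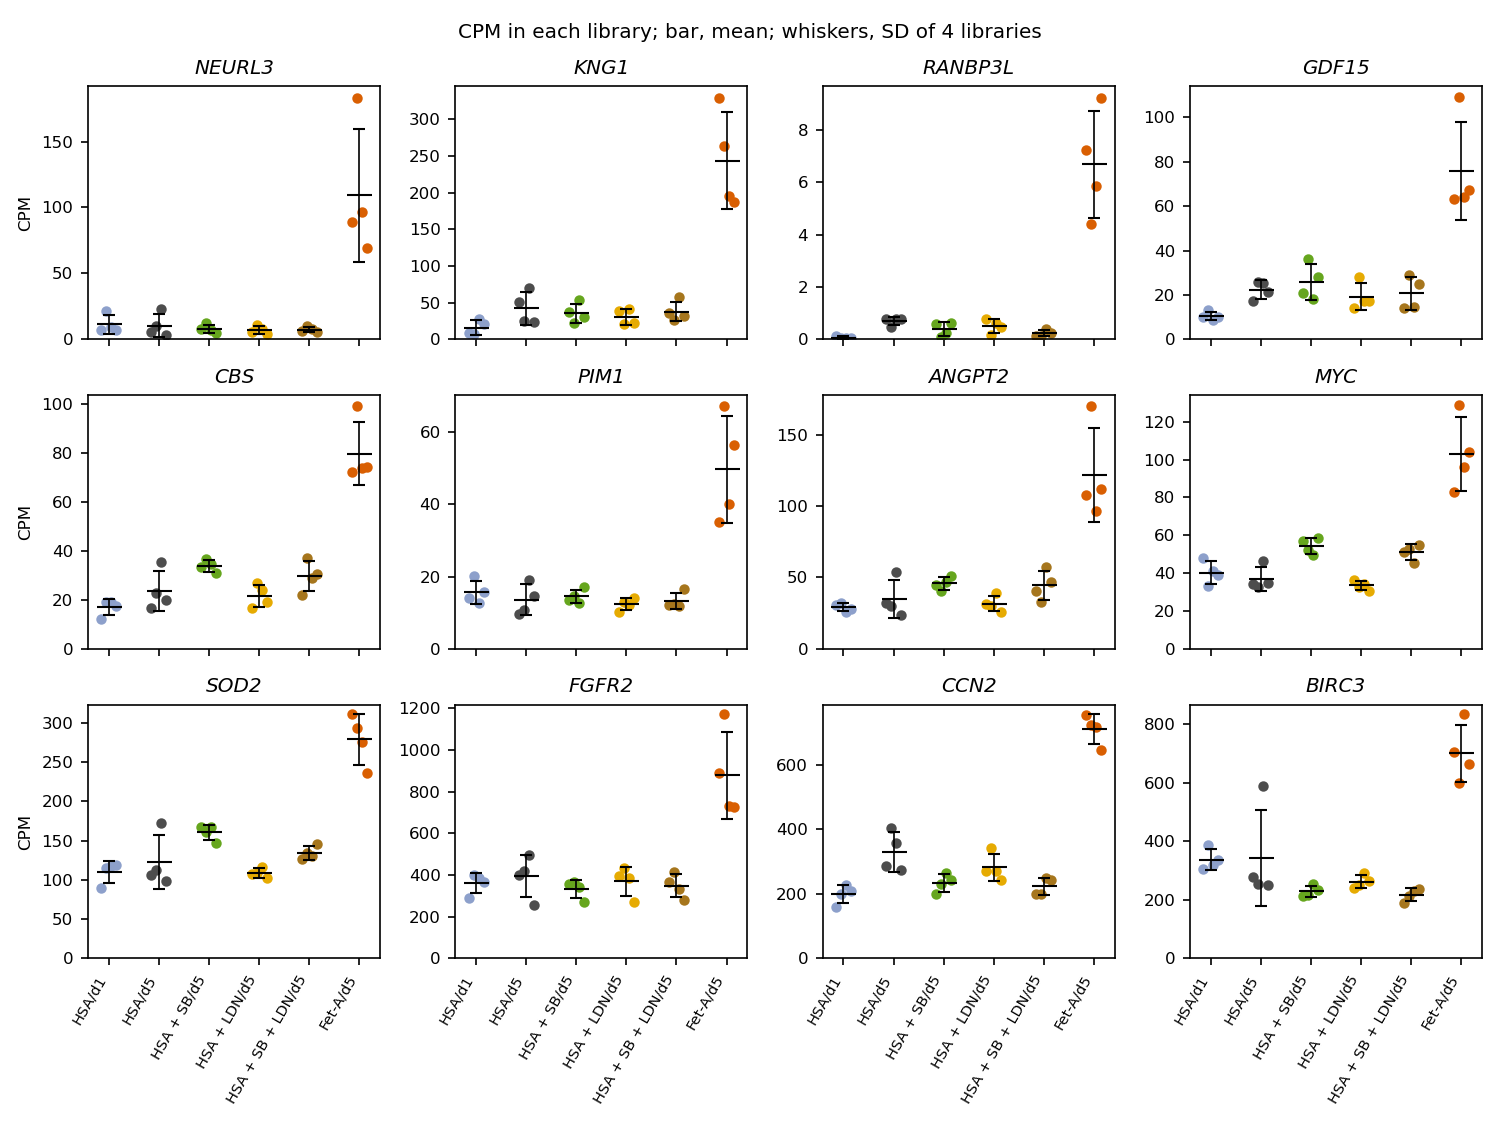
CPM (linear axes from 0) of 12 of the 64 genes in each of the 24 libraries; bars are means and whiskers the SD of 4 libraries. The Fet-A/d5 points lie above all others in each panel, from 69.5 to 183 CPM for NEURL3 and 600 to 833 CPM for BIRC3, and the single high HSA/d5 point in the BIRC3 panel is replicate 3.

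How the 64 genes moved during maturation in HSA alone was mixed. R of HSA/d5 over HSA/d1 was from -0.67 to 1.35 with a median of 0.15 (0.06 over all genes at 1 CPM). It was above 0 for 44 and below 0 for 20, where 57.3% of all genes at 1 CPM were above 0. In the edgeR fit 5 of them passed an adjusted p below 0.05 with a log2 fold change above 1 at HSA/d5 (6.7% of all 14842 genes tested did), and 1 passed in the opposite direction (2.22% of all). Those higher at HSA/d5 were RANBP3L, KNG1, TMPRSS11F, KCNF1 and RBP4, and the one lower was SLC6A12. Without HSA/d5 replicate 3, 2 were higher (RANBP3L and KCNF1; 6.61% of all genes) and 1 lower (2.31%). The rule used both groups, so the counts are descriptive. By the way they were chosen all 64 were higher with fetuin-A, with 64 of 64 past both thresholds against HSA/d5 (1.84% of all genes) and against HSA/d1 (4.74%).

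LDN libraries took no part in the choice of the genes other than through the minimum of 1 CPM, so they gave a further set of controls. For 59 of the 64, all 4 Fet-A/d5 libraries lay above all 8 libraries of HSA + LDN/d5 and HSA + SB + LDN/d5, which was so for 10.1% of genes at 1 CPM. For 57 they lay above all 20 other libraries (5.4% of genes). The fetuin-A libraries were used by the rule, so neither count is a test. The 7 genes whose fetuin-A libraries overlapped another group were LDHD, LRP4, RBP4, CROCC2, NDST4, ABAT and the identifier ENSSSCG00000008702. ABAT, for example, had a lowest fetuin-A value of 103 CPM, while HSA + SB/d5 reached 139 CPM and HSA + SB + LDN/d5 118 CPM.

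For LDN alone R over HSA/d5 was from -0.95 to 0.26 and a median of -0.09. In edgeR, 0 of the 14842 genes passed an adjusted p below 0.05 for HSA + LDN/d5 against HSA/d5 (the only tool run on this comparison), with 0.552% of them higher and 0.66% lower at an unadjusted p below 0.05. Of the 64, 1 had an unadjusted p below 0.05: DHRS3, at 1.54 to 2.92 CPM with LDN and 2.51 to 5.52 CPM without.

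Without LDN, SB431542 was held within the limit of the rule, so its values are a description. The limit applied with 0.5 added to each mean, and some means moved by more without that addition. ACOD1, for example, had means of 0.148 CPM in HSA/d5 and 0.0103 CPM in HSA + SB/d5. At an adjusted p below 0.05 alone, MYC (log2 fold change 0.56) and SUN2 (0.30) were higher in HSA + SB/d5 than in HSA/d5 (3.34% of all genes) and CCN2 (-0.49) was lower (3.79%). These counts depended on HSA/d5 replicate 3. Without it, in a fit chosen once the values were known, 8 of the 64 genes were higher (3.42% of all genes) and 1 lower (4.15%). The 8 were MYC (log2 fold change 0.68, SE 0.134), SUN2, SOD2 (0.61, SE 0.0911), CBS (0.78), TRPM6 (0.79), ANGPT2 (0.68), P2RY2 (0.62) and TMPRSS11F (1.28, SE 0.282). The gene with lower values was again CCN2 (-0.46, SE 0.135).

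The effect of SB431542 in the presence of LDN was the one contrast between groups that the rule had not used, and it was tested. The rule had, however, limited the effect of SB431542 without LDN to less than 1.5-fold, with 0.5 added to each mean. Few large changes among the 64 were therefore likely from their choice, and the shares of all genes come from genes not so limited. None of the 64 genes passed both thresholds in edgeR (0.243% of all genes were higher and 0.586% lower) or in DESeq2. At an adjusted p below 0.05 alone, 1 was higher (0.532% of all) and 0 were lower (1.21% of all). At an unadjusted p below 0.05, 9 were higher (7.03% of all genes) and 4 lower (6.65%). The median log2 fold change of the 64 was 0.07, beside 0.00 over all genes tested. R was above 0 for 35 genes and below 0 for 29, where 46.8% of all genes at 1 CPM were above 0. The libraries of the groups did not overlap for 6 genes with higher values (4.49% of genes at 1 CPM) and 4 with lower values (5.8%).

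The gene that passed was MYC. It was at 36.2, 32.9, 34.5 and 30.8 CPM in HSA + LDN/d5 and at 51.1, 52.9, 45.1 and 54.8 CPM in HSA + SB + LDN/d5, with no overlap, a log2 fold change of 0.62 (SE 0.135) and an adjusted p of 0.0212 by edgeR's quasi-likelihood test. The call was lost in 5 of the 8 fits that left out 1 library of the groups compared (adjusted p 0.053 to 0.0783), with log2 fold changes of 0.57 to 0.61 there. MYC libraries with SB431542 stayed below every fetuin-A library.

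Among the 13 genes with an unadjusted p below 0.05, TMPRSS11F, P2RY2, ADAMTS1, SOD2, TRPM6, CBS, ANGPT2 and NEDD4 had values in the same direction as MYC. SOD2, for example, was at 107, 109, 117 and 102 CPM with LDN and at 127, 134, 130 and 146 CPM with LDN and SB431542 (log2 fold change 0.32, SE 0.128, adjusted p 0.253 in edgeR). CCN2, SHF, RANBP3L and RNF182 had values in the other direction. CCN2, a known target of TGFβ, was at 271, 341, 271 and 243 CPM with LDN and at 199, 199, 250 and 242 CPM with both (log2 fold change -0.32, SE 0.124, adjusted p 0.221 in edgeR). The groups overlapped at 243 to 250 CPM.

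**Figure D4:**
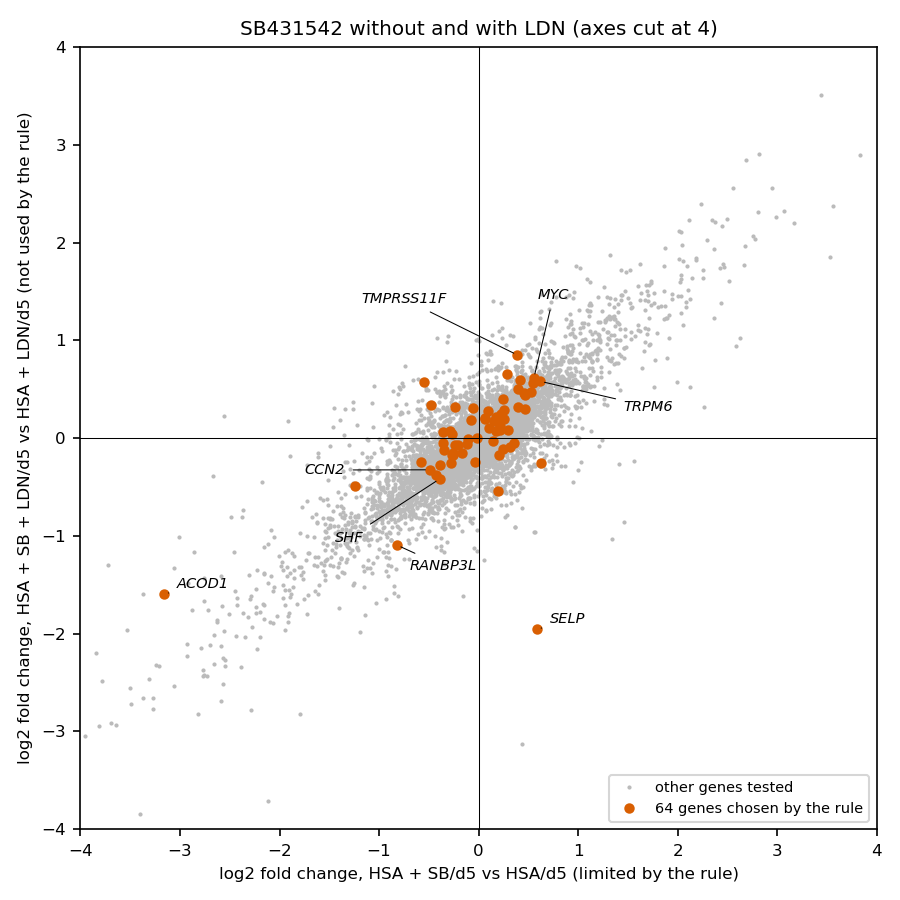
Log2 fold changes (edgeR) for SB431542 without LDN (x axis, limited by the rule) and with LDN (y axis, not used by the rule) for the genes tested; the 64 genes are orange. MYC is the orange point that passed an adjusted p below 0.05 on the y axis (0.62); ACOD1 and SELP, far from the rest, are genes of a few reads per library.

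The genes of known pathways around the 64 were examined through lists of symbols. All lists, the innate immune list included, were chosen with earlier results of these data known, so their counts are a description. Of a list of innate immune and NF-κB genes, SOD2 and BIRC3 were among the 64, and 20 others were tested. Of these 20, 11 were higher and 1 was lower in Fet-A/d5 than in HSA/d5 (adjusted p below 0.05 and absolute log2 fold change above 1, edgeR), where 1.84% of all genes were higher and 6.29% lower. The median log2 fold change of the 20 was 1.08. Those with the lowest p were ICAM1, a leucocyte adhesion molecule, at 320 to 462 CPM against 92.1 to 249 CPM (log2 fold change 1.39, SE 0.240), and NFKBIA, the inhibitor IκBα, at 131 to 228 CPM against 58.4 to 149 CPM (1.14, SE 0.230). Without HSA/d5 replicate 3, 13 of the 20 were higher and 1 lower (2.6% and 6.94% of all genes), with a median of 1.48. Without Fet-A/d5 replicate 2, 12 were higher and 0 lower (1.45% and 5.06%).

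Of the 11, 10 overlapped HSA/d5 in single libraries and 8 exceeded the limit on SB431542, all 8 with a lower mean in HSA + SB/d5; without HSA/d5 replicate 3, 4 did so (IL1A, CXCL8, CCL2 and PTGS2), whereas CXCL2 had a mean of 28.9 CPM with SB431542 and 26.1 CPM in the other HSA/d5 libraries. HSA/d5 replicate 3 was the highest HSA/d5 library for 10 of the 11, a count not made over all genes. CXCL8, chosen as an example after its values were seen, was at 851, 482, 1161 and 518 CPM in Fet-A/d5 and at 132, 84.6, 512 and 55.3 CPM in HSA/d5, but at 47.5 to 67.8 CPM in HSA + SB/d5. Likewise PTGS2, the inducible cyclooxygenase, was at 296, 199, 335 and 118 CPM with fetuin-A, at 11.9 to 161 CPM in HSA/d5 and at 2.92 to 10.0 CPM in HSA + SB/d5. Over the 20 others, the median log2 fold change was -0.79 for SB431542 without LDN (7 lower and 0 higher at an adjusted p below 0.05, beside 3.79% and 3.34% of all genes) and -0.37 with LDN (2 lower and 0 higher). Without HSA/d5 replicate 3 the former median was -0.21, with 3 lower and 0 higher. Leaving out HSA/d5 replicate 3, 5 genes of this list met the rule: LCN2, NFKBIZ, ICAM1, IL6 and CXCL2.

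The TGFβ receptor and SMAD2/3 list contains genes that the study singled out in these samples, and RANBP3L, which it singled out in adult human islets. Of this list, MYC and RANBP3L were among the 64. Of 18 others, 0 were higher and 3 lower past both thresholds in edgeR, with 1 higher and 5 lower at an adjusted p below 0.05 alone (18.3% and 17.3% of all genes) and 1 and 6 at an unadjusted p below 0.05. SNAI1, a repressor induced by TGFβ, was at 3.42 to 6.13 CPM with fetuin-A and 4.89 to 15.6 CPM in HSA/d5 (log2 fold change -1.39, SE 0.275), and POSTN, periostin, at 13.8 to 38.4 CPM and 24.5 to 242 CPM (-2.53, SE 0.501). The median of the 18 was -0.38.

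Lists of other pathways held none of the 64 genes. KLF15, a transcription factor of amino acid and glucose metabolism, was the 1 of 13 other FOXO and insulin genes that was higher past both thresholds (9.05 CPM in HSA/d5, 31.4 CPM in Fet-A/d5, log2 fold change 1.85, SE 0.143), and 1 was lower. Of 17 cholesterol genes 1 was higher and 0 lower, of 15 fatty acid genes 0 and 2, of 14 stress response genes 0 and 0 (6 and 1 at an unadjusted p below 0.05), of 9 oxidative and metal stress genes 0 and 1, of 16 immediate early genes 1 and 0, and of 9 genes kept low in mature beta cells 1 and 1. At an adjusted p below 0.05 alone (18.3% of all genes higher and 17.3% lower), 6 cholesterol genes were higher and 0 lower, with 4 and 5 of the fatty acid list, 6 and 0 of the stress list, 0 and 1 of the oxidative and metal list, 6 and 2 of the FOXO and insulin list, 5 and 3 of the immediate early list and 3 and 1 of the genes kept low in beta cells. Medians of these lists were between -0.18 and 0.36. By contrast, all 12 proliferation genes were lower (median -2.18), and remained so without HSA/d5 replicate 3 (median -2.24) or Fet-A/d5 replicate 2 (-1.96). The proliferation list contains genes that the study reported as lowered by fetuin-A in these samples, so this is a description. The extracellular matrix list had 2 of 16 lower, and the gastrointestinal and squamous list 0 of 7 in either direction (1 higher and 0 lower at an unadjusted p below 0.05). Without HSA/d5 replicate 3, 1 fatty acid gene and 1 gene of the gastrointestinal list were higher, and without Fet-A/d5 replicate 2, 0 cholesterol genes were. The other counts of these lists moved by at most 1 when either library was left out.

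Acute phase and hepatocyte proteins were tested because KNG1, HRG and fetuin-A itself are made by the liver. Of 11 tested, 1 was higher and 3 were lower, with TTR at 42.9 to 110 CPM in Fet-A/d5 and 150 to 320 CPM in HSA/d5 (log2 fold change -1.81, SE 0.276) and TF at 16.6 to 80.6 CPM and 146 to 331 CPM (-2.27, SE 0.443). Albumin mRNA (ALB) had means of 1.79 and 1.90 CPM. Without HSA/d5 replicate 3, or without Fet-A/d5 replicate 2, 0 of the 11 were higher and 2 lower.

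**Figure D5:**
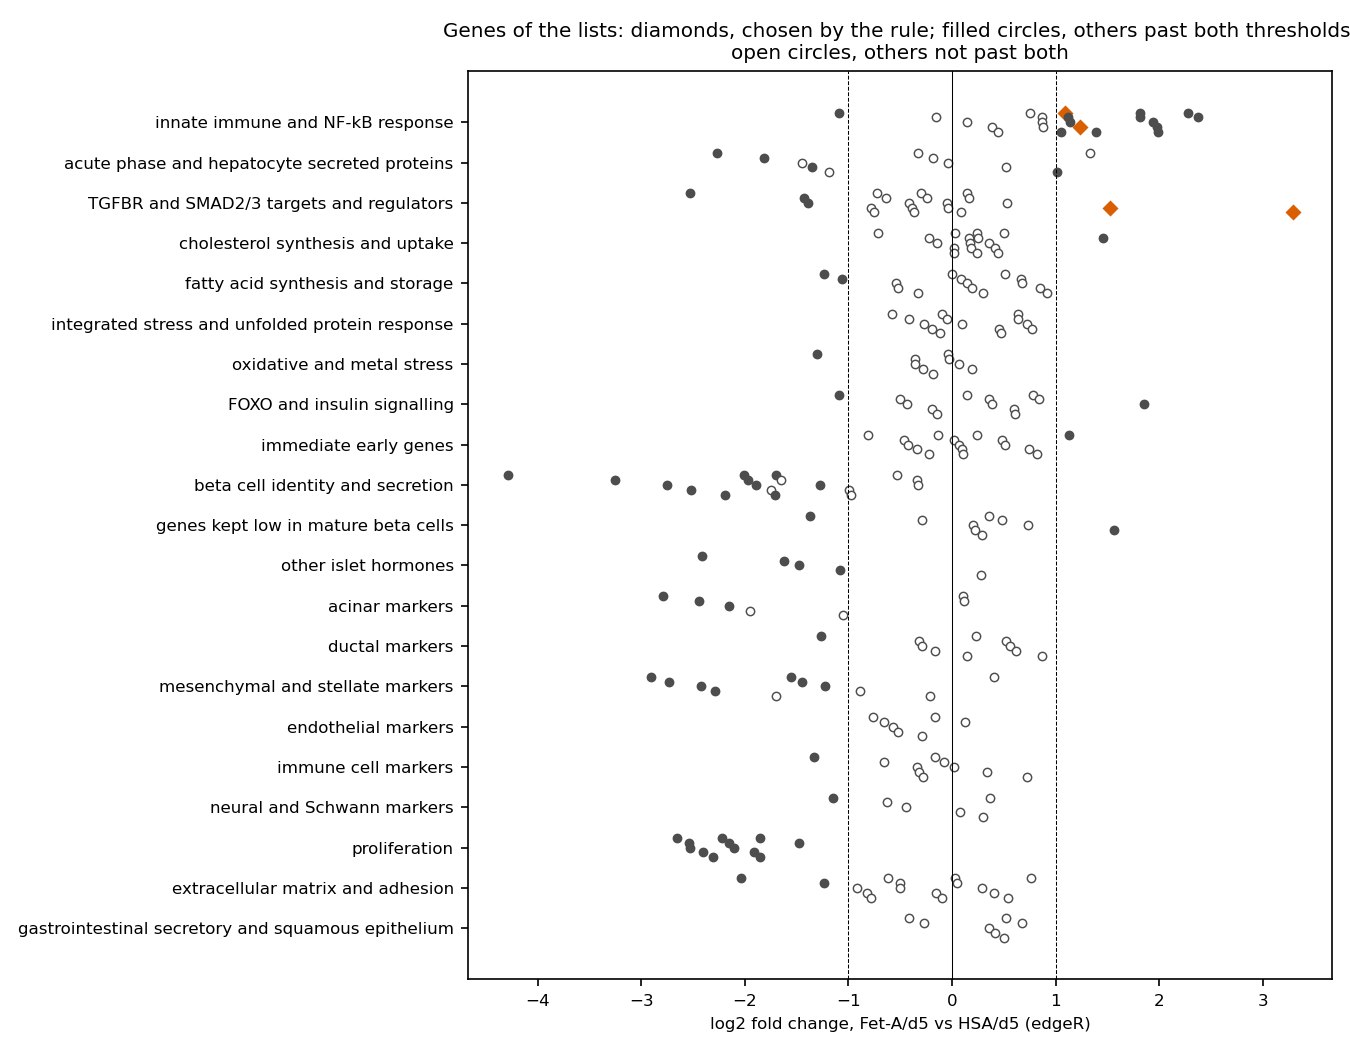
Log2 fold change of Fet-A/d5 against HSA/d5 (edgeR) for the tested genes of 21 lists, 1 row per list. Orange diamonds are the 4 listed genes among the 64, filled circles other genes past both thresholds (dashed lines at 1 and -1), open circles the rest; the innate immune row has 11 filled circles on the right, and the beta cell and proliferation rows lie on the left.

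Markers of the cell types in the clusters shifted with the same comparison. None of them was among the 64. The beta cell list contains genes that the study reported as lowered by fetuin-A in these samples, so its counts are a description. Beta cell genes were lower in 11 of 18 (median -1.73), other islet hormone genes in 4 of 5, acinar markers in 3 of 7 and mesenchymal markers in 7 of 11, and 0 were higher in any of these lists (at an unadjusted p below 0.05, 1 hormone gene was). Without Fet-A/d5 replicate 2, 2 hormone genes and 1 acinar marker were lower. Summed over the list, mesenchymal markers were at 2063 to 4468 CPM in Fet-A/d5, 2991 to 10565 CPM in HSA/d5 and 6948 to 11757 CPM in HSA/d1. Ductal markers were at 10614 to 12395, 5976 to 11754 and 6958 to 10879 CPM in these groups, with 0 of 10 higher and 1 lower past both thresholds; CFTR, the chloride channel of duct cells, had a log2 fold change of 0.87 (SE 0.196). Their part in the values of the 64 genes was not tested.

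Immune cell markers were low throughout. Their sum was 29.9 to 58.7 CPM in Fet-A/d5, 33.3 to 80.3 CPM in HSA/d5 and 27.6 to 48.2 CPM in HSA/d1, with 0 of 10 higher and 1 lower. The T cell gene CD3E did not exceed 0.0501 CPM in a fetuin-A library and was at 0 in HSA/d1 and HSA/d5. Endothelial markers, of interest beside ANGPT2 and SELP, summed to 181 to 480 CPM with fetuin-A and 377 to 614 CPM in HSA/d5, with 0 of 7 past both thresholds in either direction (0 higher and 1 lower at an unadjusted p below 0.05). Neural and Schwann markers overlapped widely between the groups, at 549 to 2209 and 481 to 2006 CPM, with 0 of 6 higher and 1 lower.

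By symbol, 51 of the 64 genes were found on 17 chromosomes of the pig RefSeq annotation (Sscrofa11.1), with at most 6 on one. The rest were not placed. Among those placed, 3 pairs stood next to each other with no protein-coding gene between them. How many such pairs an equal number of other genes would form was not computed. HRG and KNG1 are neighbours on chromosome 13, in the cluster that also holds AHSG and FETUB. The latter 2 were at group means of at most 0.0867 CPM. EIF4A2, a translation factor on the other side of KNG1, had means of 1239 CPM with fetuin-A and 745 CPM in HSA/d5 (log2 fold change 0.79, SE 0.0741).

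RIPOR3 and PARD6B are neighbours on chromosome 17, and SHF and DUOX1 on chromosome 1. Beside DUOX1 lie DUOX2 and the maturation factor DUOXA1. DUOX2 had means of 48.2 and 21.0 CPM (log2 fold change 1.26, SE 0.525, adjusted p 0.0677 in edgeR) and DUOXA1 5.95 and 3.10 CPM (0.99, SE 0.488, adjusted p 0.119), so both had higher means than in HSA/d5 without passing the test. NEURL3 and ITPRIPL1 on chromosome 3 have the condensin gene NCAPH between them, which fell by 0.86 on the log2 scale (SE 0.151). Whether neighbouring genes share reads was not examined here.

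The spread between libraries was larger for the 64 genes than for genes at large in the groups that carried the contrast. Over the 42 of them with an HSA/d5 mean of at least 5 CPM, the median coefficient of variation was 22.9% in Fet-A/d5 and 23.6% in HSA/d5, against 10.1% and 9.49% over all genes at that level. In the other 4 groups it was 13.0% to 16.6%, against 8.34% to 10.4%. The HSA/d5 figure includes replicate 3, described above.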

How the data were processed

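RNA of NICCs was sequenced as strand-specific, poly(A)-selected single reads. The authors deposited raw read counts per Ensembl gene identifier (unit, counts; whole numbers) for 24 libraries, 6 of them listed as 2 runs with a single column each. The submitters' processing notes name FastQC 0.11.8, Trim Galore 0.5, STAR 2.6.1, Picard, featureCounts 1.6.2 and DESeq2 1.22.1; genome build, annotation and strand setting of the counting are not given in the sources used here. No column was left unused. Groups came from the sample labels.

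CPM and R were computed from the deposited counts and column totals. Symbols came from a table that paired 14857 of the 25880 identifiers. Tests used edgeR 4.0.16 (filterByExpr, TMM, glmQLFit and glmQLFTest, all 24 libraries, 1 coefficient per group) in R 4.3.3, with Benjamini-Hochberg adjustment over the 14842 genes tested; all 64 genes passed the filter. DESeq2 1.42.0 and sva 3.50.0 served as alternatives, and the fit was tested on simulated counts. Replicate numbers are names given in sample order and pair no libraries. The design text gives 4 independent islet preparations without assigning libraries to them, so P values rest on the spread between libraries. Named by rule were the 15 genes with a symbol and the highest Fet-A/d5 mean, the 15 with the highest R over HSA/d5, those in a list, those called for SB431542 with LDN, and up to 2 other genes per list by p. Fold changes of edgeR are on TMM-scaled counts. The SE given with them is the absolute log2 fold change divided by the square root of the quasi-likelihood F statistic. It is thus back-calculated from the test and not estimated by the model. In CPM, a fall of abundant transcripts raises the share of all others. The genes and lists were chosen with earlier results of these data known. Promoter and protein sequences were not analysed here.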

Additional observations from a re-analysis of the deposited data

Results flagged for a closer look

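In 48 sets of 4 libraries examined (30 genes in Fet-A/d5, and the summed level, median level and total count of each group), 5 held a library whose gap to the next was past Dixon's critical share of the range. By chance about 1 in 20 independent sets would pass it, but these sets were not independent. The 30 gene sets shared the same 4 libraries, whose values the rule had used. The number is therefore a description, and no rate over all genes was computed. All 5 were single genes in Fet-A/d5, and in each the high library was replicate 2: SLC4A7 at 340 CPM, UBD at 9.00 CPM, RIPOR3 at 11.7 CPM, GDF15 at 109 CPM and CBS at 99.0 CPM. The other three fetuin-A libraries held 247 to 262 CPM of SLC4A7, 0.709 to 1.40 CPM of UBD, 3.95 to 4.12 CPM of RIPOR3, 63.2 to 67.2 CPM of GDF15 and 72.0 to 74.0 CPM of CBS. For all 5 genes these values also lay above every HSA/d1 and HSA/d5 library.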

How the results depend on the processing

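The rule gave 64 genes, and 72 and 71 with TMM or DESeq2 scaling, 74 and 55 with 0.1 or 2 added to the means, 64 with no minimum and 51 with a minimum of 5 CPM. Leaving out 1 library gave 59 to 114 genes, the latter without HSA/d5 replicate 3, and 30 of the 64 met it each time. The genes with fetuin-A libraries above all LDN libraries numbered 59 to 62. For SB431542 with LDN, genes past both thresholds were 123, and 193 by DESeq2, 372 with 3 surrogate variables and 59 to 104 without 1 library; at adjusted p alone they were 258, 487, 2001 and 123 to 198. Of the 64, the number at adjusted p alone was 1, rising to 4 with surrogate variables and 2 in a fit of only those groups, and 0 to 2 without 1 library. Without 1 library, 58 to 64 of the 64 passed both thresholds against HSA/d5 (973 to 1426 of all genes) and 58 to 64 against HSA/d1 (1295 to 1504). Named genes kept their direction in all fits against HSA/d5 and HSA/d1; the call was lost in 11 and 14 of 445. Without HSA/d5 replicate 3, chosen after seeing the data, SB431542 without LDN gave 8 higher genes of the 64 in place of 2, 3 lower innate genes in place of 7 and 4 past the limit in place of 8, and maturation in HSA gave 2 higher genes of the 64 in place of 5. A minimum of 10 counts in every library left 52 of the 64 for testing. No paired analysis was possible because the labels give no replicate numbers and assign no library to a preparation. The causes were not tested. Low depth limits the 11 genes under 1 CPM in HSA/d5.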
